A study of Mus musculus with 36 samples.

Results

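Expression of 10 genes of insulin signalling and glucose uptake was examined in the gastrocnemius muscle of 36 male C57BL/6 mice. The genes were taken by name from 46893 annotated features: Insr, Irs1, Irs2, Pik3r1, Pik3ca, Akt2, Tbc1d4, Tbc1d1, Slc2a4 and Hk2. Mice of 3 to 4 weeks of age, acclimated before assignment per the study's methods, formed 6 groups of 6. The groups NFD-C and HFD-C were sedentary. NFD-C had a diet with 16% of energy from fat, and HFD-C had the high-fat diet with 45%. The other 4 groups ate the high-fat diet and ran daily for 12 weeks on an in-cage wheel, at 2.1 km/day in HFD-25%, 4.2 km/day in HFD-50%, 6.3 km/day in the HFD-75% group and 8.3 km/day, without a limit, in HFD-U. All mice were wild type, and each library came from the muscle of 1 mouse.

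In muscle, insulin binds a receptor tyrosine kinase (Insr) that phosphorylates the docking proteins IRS1 and IRS2 (Irs1, Irs2). These recruit phosphoinositide 3-kinase, a dimer of a regulatory subunit (p85-alpha, from Pik3r1) and a catalytic subunit (p110-alpha, from Pik3ca), and the lipid it makes activates the kinase AKT2 (Akt2). AKT2 phosphorylates the Rab GTPase-activating proteins TBC1D4 and TBC1D1, which releases vesicles that carry the glucose transporter GLUT4 (Slc2a4) to the cell surface, and hexokinase 2 (Hk2) then traps the glucose inside the fibre as glucose 6-phosphate. Contraction moves GLUT4 by a separate route that also passes through TBC1D1.

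Pik3r1 and Irs1 passed an unadjusted p of 0.05 in more comparisons than the other members. Pik3r1 had a bell-shaped curve over running distance (adjusted p = 0.0386), with its highest mean in HFD-50%. It was the only member past an adjusted p of 0.05 in any comparison. That p ran from 0.0190 to 0.103 when single mice were left out, and several other settings also took it above 0.05. Among the 4 running groups alone the adjusted p of Pik3r1 was 0.627. Irs1 passed only an unadjusted p of 0.05, called the unadjusted limit below, with lower values than HFD-C in 3 of the 4 running groups, and in HFD-U when mouse number was a block. Slc2a4, Hk2, Akt2, Insr, Irs2 and Pik3ca passed the unadjusted limit in none of the 8 comparisons, each of which was run with edgeR's quasi-likelihood test. Pik3r1 is among the genes that the study itself selected on these mice for its dose response, so its test here is not independent evidence.

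The sequences before the start sites of Pik3r1 and Irs1 are shown because these members passed the unadjusted limit in the most comparisons. Each line holds the 250 bases before an annotated start, read 5′ to 3′ on the gene's strand, from RefSeq on build GRCm38.p6. RefSeq gave 2 starts for Pik3r1, an outer one at chr13:101768218-101768467 on the minus strand and an inner one at chr13:101692631-101692880 on the minus strand. The inner start belongs to shorter products of the gene. The Irs1 stretch is chr1:82291440-82291689 on the minus strand. Capitals mark the letters GGGCGG (the GC box), CCAAT (the CCAAT box), CACGTG (an E-box) and TATAAA (the TATA box) on either strand.
Pik3r1 outer start: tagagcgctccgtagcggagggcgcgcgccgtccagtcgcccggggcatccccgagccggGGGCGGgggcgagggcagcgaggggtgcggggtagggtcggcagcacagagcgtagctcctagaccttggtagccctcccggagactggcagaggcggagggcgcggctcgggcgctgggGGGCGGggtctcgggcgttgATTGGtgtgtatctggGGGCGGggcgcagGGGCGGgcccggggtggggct
Pik3r1 inner start: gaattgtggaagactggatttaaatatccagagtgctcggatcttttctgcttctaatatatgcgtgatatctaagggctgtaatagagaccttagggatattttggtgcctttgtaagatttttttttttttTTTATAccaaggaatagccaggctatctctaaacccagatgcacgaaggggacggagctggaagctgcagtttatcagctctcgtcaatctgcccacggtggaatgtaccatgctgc
Irs1 start: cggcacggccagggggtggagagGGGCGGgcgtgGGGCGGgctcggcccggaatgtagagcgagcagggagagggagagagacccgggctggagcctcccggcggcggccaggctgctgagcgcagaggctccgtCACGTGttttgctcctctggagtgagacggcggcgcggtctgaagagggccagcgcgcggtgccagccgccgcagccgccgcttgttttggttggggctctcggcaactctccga

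The outer Pik3r1 stretch was 76.4% G and C and held 30 CpG pairs, whereas the inner one was 42.4% G and C with 6. The Irs1 stretch was 72.4% G and C with 28 CpG pairs. Of 32851 such stretches in the table, 32.7% held a GC box, 33.8% a CCAAT box, 12.4% a TATA box and 6.02% the E-box letters. The letters TGTTTAC, which FOXO factors bind, were in 3.17% of all stretches and in none of the 13 stretches of the 8 members that had an entry. Counts were made per gene, so transcripts from the outer and inner Pik3r1 starts were summed and cannot be told apart here.

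Levels were compared between genes as fragments per kilobase scaled to library size (FPKM), which corrects for gene length. Slc2a4 was the highest member at 183 ± 22.8 FPKM (SD, n = 36), followed by Hk2 at 60.3 ± 17.7, Akt2 at 28.9 ± 3.97, Tbc1d1 at 14.5 ± 6.40 and Insr at 8.83 ± 1.65 FPKM. The other members lay close together, with Irs1 at 5.21 ± 1.75, Tbc1d4 at 5.19 ± 1.49, Pik3ca at 4.71 ± 1.20, Pik3r1 at 4.32 ± 2.09 and Irs2 at 3.76 ± 1.44 FPKM. Slc2a4 exceeded Hk2 in 36 of 36 mice, and each following step down to Irs1 held in 32 to 35 of 36 mice. Below Irs1 the neighbours did not differ beyond their spread, since Irs1 exceeded Tbc1d4 in 17 of 36 mice, Tbc1d4 exceeded Pik3ca in 19, Pik3ca exceeded Pik3r1 in 24 and Pik3r1 exceeded Irs2 in 21.

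**Figure D1:**
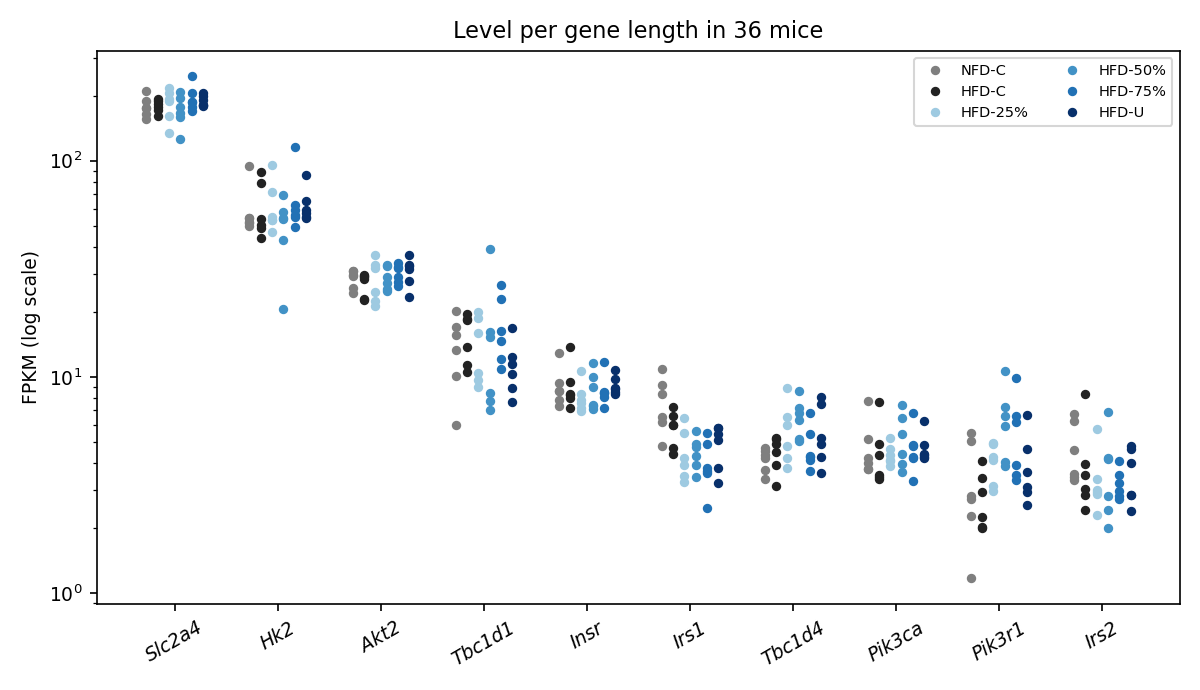
FPKM of each member in 36 mice on a log axis, 1 point per mouse, coloured by group and ordered by the mean over all mice. Slc2a4 lies above all other members in each mouse, and the lowest 5 members overlap.

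Several features of the libraries bear on the comparisons. Between 13060090 and 27981702 reads were counted on genes per library. Myofibre genes were abundant throughout, with a summed level of 81279 to 152582 CPM (counts per 1000000 counted reads after TMM scaling, which evens out library composition) for Acta1, Ckm, Myh1, Myh2, Myh4, Tnnt3 and Ttn. The slow fibre genes summed to between 8.52 and 3267 CPM, and Myh7 was at 0 in 2 libraries. Adipocyte genes summed to 1.10 to 88.3 CPM, with Adipoq at 0 in 2 libraries. Features linked to ribosomal RNA were LOC118568312, AY036118, mt-Rnr1, mt-Rnr2 and Lars2, and the study also selected Lars2 for its dose response. They took 2.01% to 3.80% of counts in NFD-C and 2.12% to 3.54% in HFD-C mice 1 to 4, but 0.551% and 0.626% in HFD-C mice 5 and 6 and 0.404% to 1.02% in the 24 runners. A comparison of runners with HFD-C therefore crosses this difference, and values are also given for the 2 HFD-C mice with a low share. In bulk tissue, fewer cells of a type and less RNA per cell cannot be told apart.

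Mice numbered 1 stood apart for some members. Mouse 1 had the highest CPM of its group for Hk2 and Pik3ca in 6 of 6 groups, for Insr and Slc2a4 in 5, for Pik3r1 and Tbc1d4 in 4, for Tbc1d1 in 3, for Irs2 and Akt2 in 2 and for Irs1 in 1. Of the 12006 genes tested in the 30 high-fat mice, 5.01% had mouse 1 highest in all 6 groups and 9.95% in at least 5. Results are therefore also given without mice numbered 1, a setting added after the data were seen.

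Beginning with the receptor, Insr (GRCm39 chr8:3200922-3329649, minus strand) passed the unadjusted limit in no comparison. Its mean was 85.7 ± 18.8 CPM in NFD-C, 86.4 ± 22.4 in HFD-C, 76.1 ± 12.6 in HFD-25%, 82.5 ± 17.0 in HFD-50%, 82.3 ± 14.7 in the HFD-75% group and 86.4 ± 8.64 in HFD-U (SD, n = 6 each). Against HFD-C, the log2 fold change ran from -0.20 in HFD-25% to -0.01 in HFD-U, and its 95% interval in HFD-25% was -0.53 to 0.12. All groups overlapped, and the highest mouse was number 1 in each group other than HFD-50%.

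Irs1 (GRCm39 chr1:82210826-82269160, minus strand), the docking protein that couples the receptor to phosphoinositide 3-kinase, had its highest mean in NFD-C. In NFD-C it ranged from 43.7 to 99.9 CPM with a median of 67.9. In HFD-C it ranged from 40.5 to 66.3 CPM with a median of 54.9, so that these groups overlapped. Among runners, the lowest, median and highest values were 29.7, 37.4 and 59.0 CPM in HFD-25%, then 31.6, 41.5 and 51.4 CPM in HFD-50%, then 22.6, 34.0 and 50.2 CPM in the HFD-75% group, and 29.7, 48.3 and 53.4 CPM in HFD-U. In HFD-25% and HFD-75%, 4 of 6 mice lay below all HFD-C mice, in HFD-50% 3 did and in HFD-U 2 did.

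The log2 fold change of Irs1 against HFD-C was -0.40 (SE 0.175) in HFD-25%, -0.38 (SE 0.148) in HFD-50% and -0.56 (SE 0.177) in the HFD-75% group. Each passed the unadjusted limit, and the adjusted p-values were 0.687, 0.377 and 0.579. In HFD-U the value was -0.28 with a 95% interval of -0.61 to 0.06, which includes 0, and with mouse number as a block it was -0.29, past the unadjusted limit (adjusted p = 0.435). HFD-C against NFD-C gave -0.40 (SE 0.178, adjusted p = 0.9996), also past the unadjusted limit only. Ribosomal RNA features took a high share in 6 of 6 NFD-C and 4 of 6 HFD-C libraries, and the diet value did not pass at -0.34 among high-share libraries only (adjusted p = 0.969) or at -0.29 with that share as a covariate (adjusted p = 0.803). Set against only the 2 HFD-C mice with a low share of ribosomal RNA features, which had 43.1 and 54.8 CPM, the values for the groups by rising distance were -0.27, -0.26, -0.44 and -0.16, and none passed the unadjusted limit. With the share as a covariate they were -0.28, -0.29, -0.38 and -0.22, and none passed either. Without mice numbered 1, HFD-75% passed that limit at -0.39, and HFD-25% at -0.29, HFD-50% at -0.30 and the diet comparison at -0.40 did not.

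Single mice decided some of these Irs1 calls. The HFD-75% value passed the unadjusted limit whichever mouse was left out. The HFD-50% value did not pass without HFD-C mouse 1 or without HFD-50% mouse 3, nor at -0.37 in a single fit of 36 mice. The HFD-25% value did not pass without any one of HFD-C mice 1, 3, 4 and 6 and HFD-25% mice 1, 2, 4 and 5, when it lay between -0.39 and -0.32. The diet comparison did not pass without any one of NFD-C mice 1, 2 and 3 and HFD-C mice 2, 4, 5 and 6, when it lay between -0.41 and -0.27.

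Irs2 (GRCm39 chr8:11034681-11058929, minus strand), the related docking protein, was lowest of the members per length and varied more within groups. Its means were 31.5 ± 10.1 CPM in NFD-C, 27.3 ± 14.9 in HFD-C, 22.9 ± 8.18 in HFD-25%, 25.4 ± 12.1 in HFD-50%, 21.9 ± 3.49 in the HFD-75% group and 24.3 ± 6.90 in HFD-U (SD, n = 6 each). No comparison passed, and the log2 fold change in HFD-75% was -0.33 with a 95% interval of -0.84 to 0.19. The highest HFD-C mouse, number 1, had 56.8 CPM against 27.0 in the next.

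Pik3r1 (GRCm39 chr13:101817269-101904725, minus strand), the regulatory subunit that binds phosphorylated IRS proteins and holds the catalytic subunit, had the smallest adjusted p of the members over distance. The 6 HFD-C mice had 33.6, 39.2, 23.0, 46.8, 23.1 and 25.8 CPM in the order of their numbers. The 6 HFD-50% mice had 122, 83.3, 44.2, 67.9, 75.4 and 46.1 CPM, so 4 of them lay above all HFD-C mice and the groups overlapped in the other two. In HFD-25% the lowest, median and highest values were 33.8, 48.0 and 56.5 CPM, and again 4 mice lay above all of HFD-C.

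In HFD-75% these values were 38.0, 57.9 and 113 CPM, with 3 mice above all of HFD-C. In HFD-U they were 29.1, 38.5 and 76.3 CPM, with 2 mice above. NFD-C spread from 13.4 to 62.8 CPM with a median of 31.7 and spanned the HFD-C range. Pik3r1 was the member with the widest spread, 9.14-fold between the highest and the lowest of 36 mice.

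The log2 fold change of Pik3r1 against HFD-C was 0.52 (SE 0.188) in HFD-25%, 1.19 (SE 0.246) in HFD-50%, 0.99 (SE 0.262) in the HFD-75% group and 0.47 (SE 0.229) in HFD-U. The first 3 passed the unadjusted limit and the last did not, with a 95% interval of -0.01 to 0.96. The adjusted p-values were 0.579, 0.111, 0.397 and 0.925. These comparisons share the same 6 HFD-C mice. In HFD-50% the fold was 2.28, with a 95% interval of the log2 fold change of 0.67 to 1.71, and its p ranked 20 of 12116 genes. The adjusted p in HFD-50% was 0.00169 with DESeq2, 0.0189 with no minimum count and 0.0368 in a single fit of all 36 mice. With mouse number as a block it was 0.0303. It stayed above 0.05 at 0.216 with the share of ribosomal RNA features as a covariate and at 0.345 against the 2 low-share HFD-C mice. Without mice numbered 1 it was 0.200, and it ran from 0.0617 to 0.229 when single mice were left out. HFD-C did not differ from NFD-C beyond the spread, at -0.23 with a 95% interval of -0.87 to 0.41.

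HFD-50% exceeded HFD-U in Pik3r1 by a log2 fold change of 0.72 (SE 0.262, adjusted p = 0.305), past the unadjusted limit. Without HFD-50% mouse 1 it was 0.51 and did not pass, whereas without the mice numbered 1 of both groups it was 0.72 and did. In the same comparison 5 of 6 slow fibre genes passed the unadjusted limit with higher values in HFD-50%, against 7.08% of all genes. The median log2 fold change of the slow fibre genes was 2.01, and their summed level was 449 to 3267 CPM in HFD-50% and 92.1 to 1571 CPM in HFD-U. By mouse number, the HFD-50% sums were 449, 918, 1815, 905, 3267 and 2606 CPM. The part of fibre type in the Pik3r1 difference was not tested.

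A quadratic curve over distance was fitted to the 30 high-fat mice, with HFD-C at 0 and HFD-U at 100% of the unlimited distance. For Pik3r1 this curve was bell-shaped with its top at 58.3% of the unlimited distance, 1.15 above HFD-C on the log2 scale, and 0.56 above at 100% (adjusted p = 0.0386). With a straight line in place of the curve the adjusted p was 0.9998. The adjusted p was 0.123 with the groups as unordered classes, 0.0985 with the 2 low-share HFD-C mice alone as controls and 0.0713 without mice numbered 1. It was also above 0.05 when any of 11 single mice was left out, which were HFD-C mice 1 (0.0748), 3 (0.103), 5 (0.0674) and 6 (0.0717), HFD-50% mice 1 (0.0600), 2 (0.0696) and 5 (0.0665), HFD-75% mice 1 (0.0512) and 6 (0.0574), and HFD-U mice 2 (0.05001) and 6 (0.05001).

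Against the 2 low-share HFD-C mice, which had 23.1 and 25.8 CPM, the Pik3r1 log2 fold changes by rising distance were 0.90, 1.57, 1.36 and 0.85, and all 4 passed the unadjusted limit, with adjusted p-values of 0.346, 0.345, 0.489 and 0.348. Each value was larger than against all 6 HFD-C mice. All 4 share these 2 controls, which lay below the mean of 35.7 CPM of the other 4 HFD-C mice, so the rise is not a separate result in each group.

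**Figure D2:**
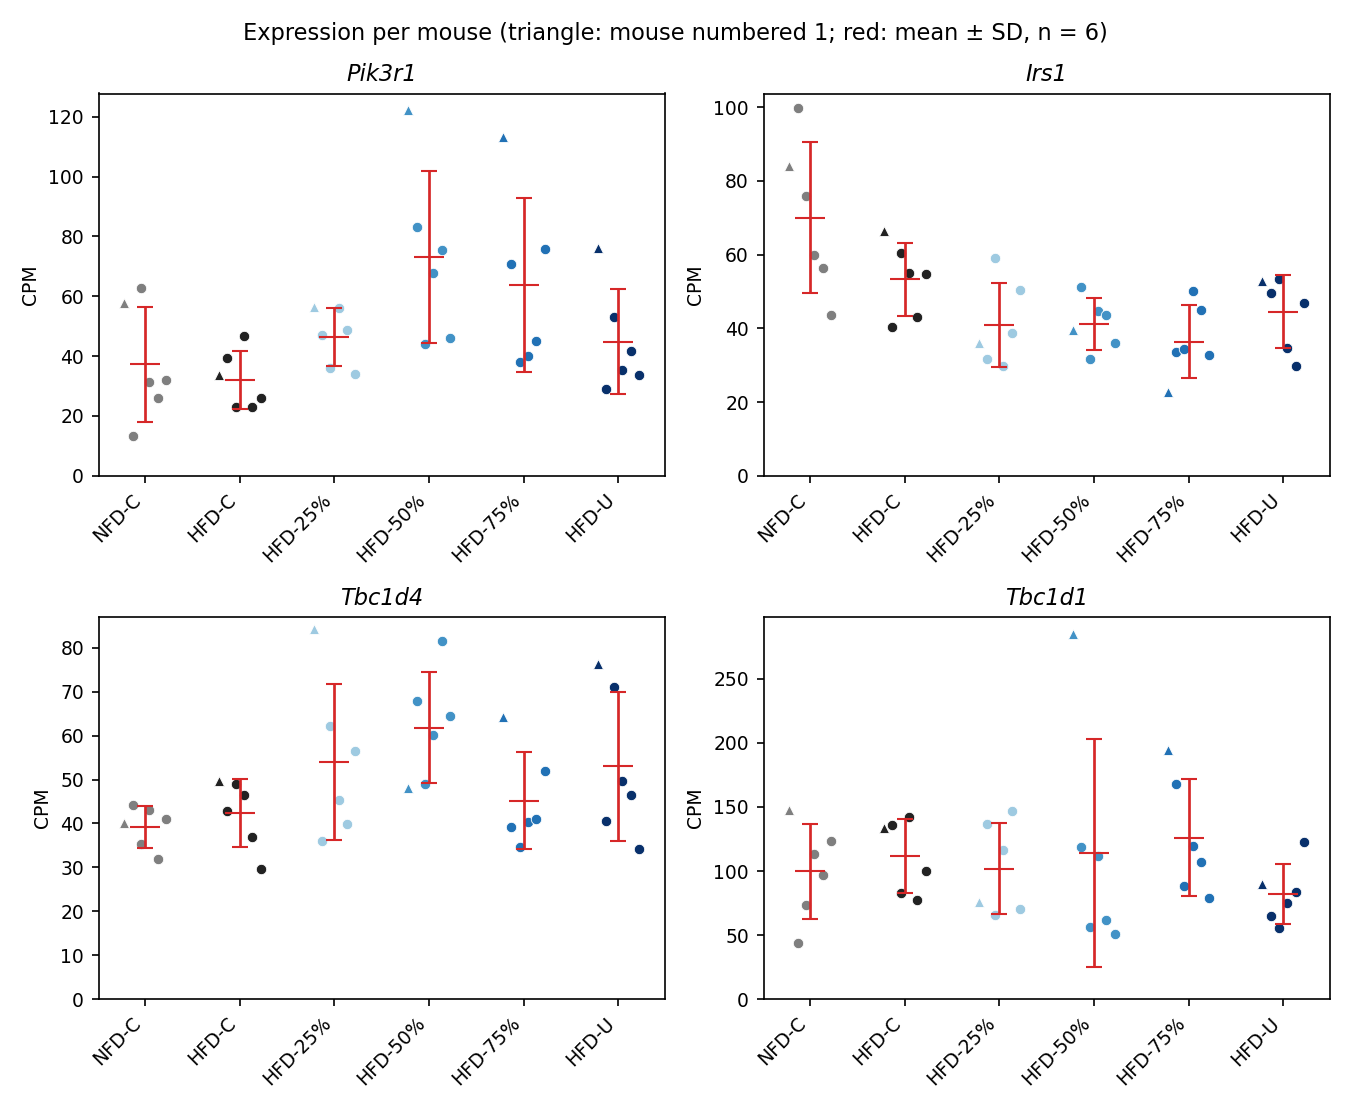
CPM per mouse of the 4 members that passed an unadjusted p of 0.05 in at least 1 comparison, with triangles for mice numbered 1 and red bars for mean ± SD of 6 mice. Pik3r1 has its highest mean in HFD-50%, Irs1 its highest in NFD-C, and a single HFD-50% mouse reaches 285 CPM of Tbc1d1.

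Pik3ca (GRCm39 chr3:32451203-32520256, plus strand), the catalytic partner, passed the unadjusted limit in no comparison of all mice. Its means were 39.3 ± 12.7 CPM in NFD-C, 37.5 ± 13.6 in HFD-C, 36.1 ± 4.04 in HFD-25%, 43.0 ± 12.2 in HFD-50%, 38.7 ± 9.74 in the HFD-75% group and 38.9 ± 6.54 in HFD-U (SD, n = 6 each). The log2 fold change in HFD-50% was 0.19 with a 95% interval of -0.27 to 0.66. Against the 2 low-share HFD-C mice, at 28.4 and 29.1 CPM, Pik3ca in HFD-U was 0.41 (adjusted p = 0.372) and passed the unadjusted limit.

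Akt2 (GRCm39 chr7:27290977-27340251, plus strand), the AKT form that serves insulin-driven glucose uptake, was among the steadiest members. Its group means ran from 193 CPM in HFD-C to 220 CPM in HFD-U, and its coefficient of variation within a group had a median of 12.0%. In HFD-U 4 of 6 mice lay above all HFD-C mice, and the log2 fold change was 0.18 with a 95% interval of -0.08 to 0.44.

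Tbc1d4 (GRCm39 chr14:101679796-101846717, minus strand), the Rab GTPase-activating protein known best as a target of insulin, ranged from 29.7 to 49.6 CPM in HFD-C with a median of 44.6. In HFD-50% its lowest, median and highest values were 48.1, 62.3 and 81.4 CPM, and 4 of 6 mice lay above all HFD-C mice. The log2 fold change there was 0.54 (SE 0.158, adjusted p = 0.224), and it passed the unadjusted limit whichever mouse was left out.

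Tbc1d4 in the other running groups overlapped HFD-C widely. The log2 fold changes were 0.33 in HFD-25% (95% interval -0.07 to 0.73), 0.08 in the HFD-75% group (-0.25 to 0.42) and 0.31 in HFD-U (-0.09 to 0.70). Against the 2 low-share HFD-C mice, which had the lowest Tbc1d4 of their group at 36.9 and 29.7 CPM, the value was 0.68 in HFD-25%, 0.88 in HFD-50% and 0.64 in HFD-U, each past the unadjusted limit only (adjusted p = 0.417, 0.363 and 0.407).

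Tbc1d1 (GRCm39 chr5:64313648-64508829, plus strand), the related protein, prominent in fast fibres and also reached by contraction signals, had its lowest mean in HFD-U. HFD-C ranged from 77.2 to 142 CPM with a median of 117, HFD-U from 55.9 to 123 CPM with a median of 79.4, and 3 HFD-U mice lay below all of HFD-C. The log2 fold change was -0.46 (SE 0.193, adjusted p = 0.868), past the unadjusted limit. In the same comparison 3 of the 4 adipocyte marker genes tested were lower at that limit, against 3.31% of all genes, with a median of -2.04. The 3 genes, Lep, Adipoq and Cidec, were scarce, with medians of 0.429, 0.976 and 1.40 CPM over all libraries, and the part of adipocytes was not tested. Tbc1d1 did not pass at -0.14 against the 2 low-share HFD-C mice, at 77.2 and 100.3 CPM, at -0.08 with the share of ribosomal RNA features as a covariate (adjusted p = 0.916), at -0.46 in a single fit of 36 mice, at -0.43 without mice numbered 1, or without any one of HFD-C mice 1, 2 and 4 and HFD-U mice 2, 3 and 4, when it lay between -0.44 and -0.37.

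In HFD-50% Tbc1d1 was 285 CPM in mouse 1, 118 in the next and 51.0 in the lowest. The mean of 114 ± 88.7 CPM (SD, n = 6) in that group therefore rests on 1 mouse, and the median was 86.9 CPM.

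Slc2a4 (GRCm39 chr11:69833112-69839040, minus strand), which encodes the transporter GLUT4, passed the unadjusted limit in no comparison. Its means were 557 ± 61.3 CPM in NFD-C, 559 ± 35.9 in HFD-C, 573 ± 95.5 in HFD-25%, 538 ± 91.4 in HFD-50%, 612 ± 86.9 in the HFD-75% group and 592 ± 35.0 in HFD-U (SD, n = 6 each). Against HFD-C the 95% intervals of the log2 fold change were -0.26 to 0.28 in HFD-25%, -0.35 to 0.23 in HFD-50%, -0.12 to 0.36 in the HFD-75% group and -0.13 to 0.27 in HFD-U. The diet comparison gave 0.00 with an interval of -0.22 to 0.22. Each interval includes 0.

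Hk2 (GRCm39 chr6:82702004-82751435, minus strand), the main hexokinase of muscle, had group means from 299 CPM in HFD-50% to 398 CPM in the HFD-75% group. It ranged from 124 to 415 CPM in HFD-50% and from 265 to 531 CPM in HFD-C, and the groups overlapped. The log2 fold change against HFD-C was -0.29 in HFD-50% with a 95% interval of -0.81 to 0.23, and 0.02, 0.11 and 0.03 in HFD-25%, HFD-75% and HFD-U.

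**Figure D3:**
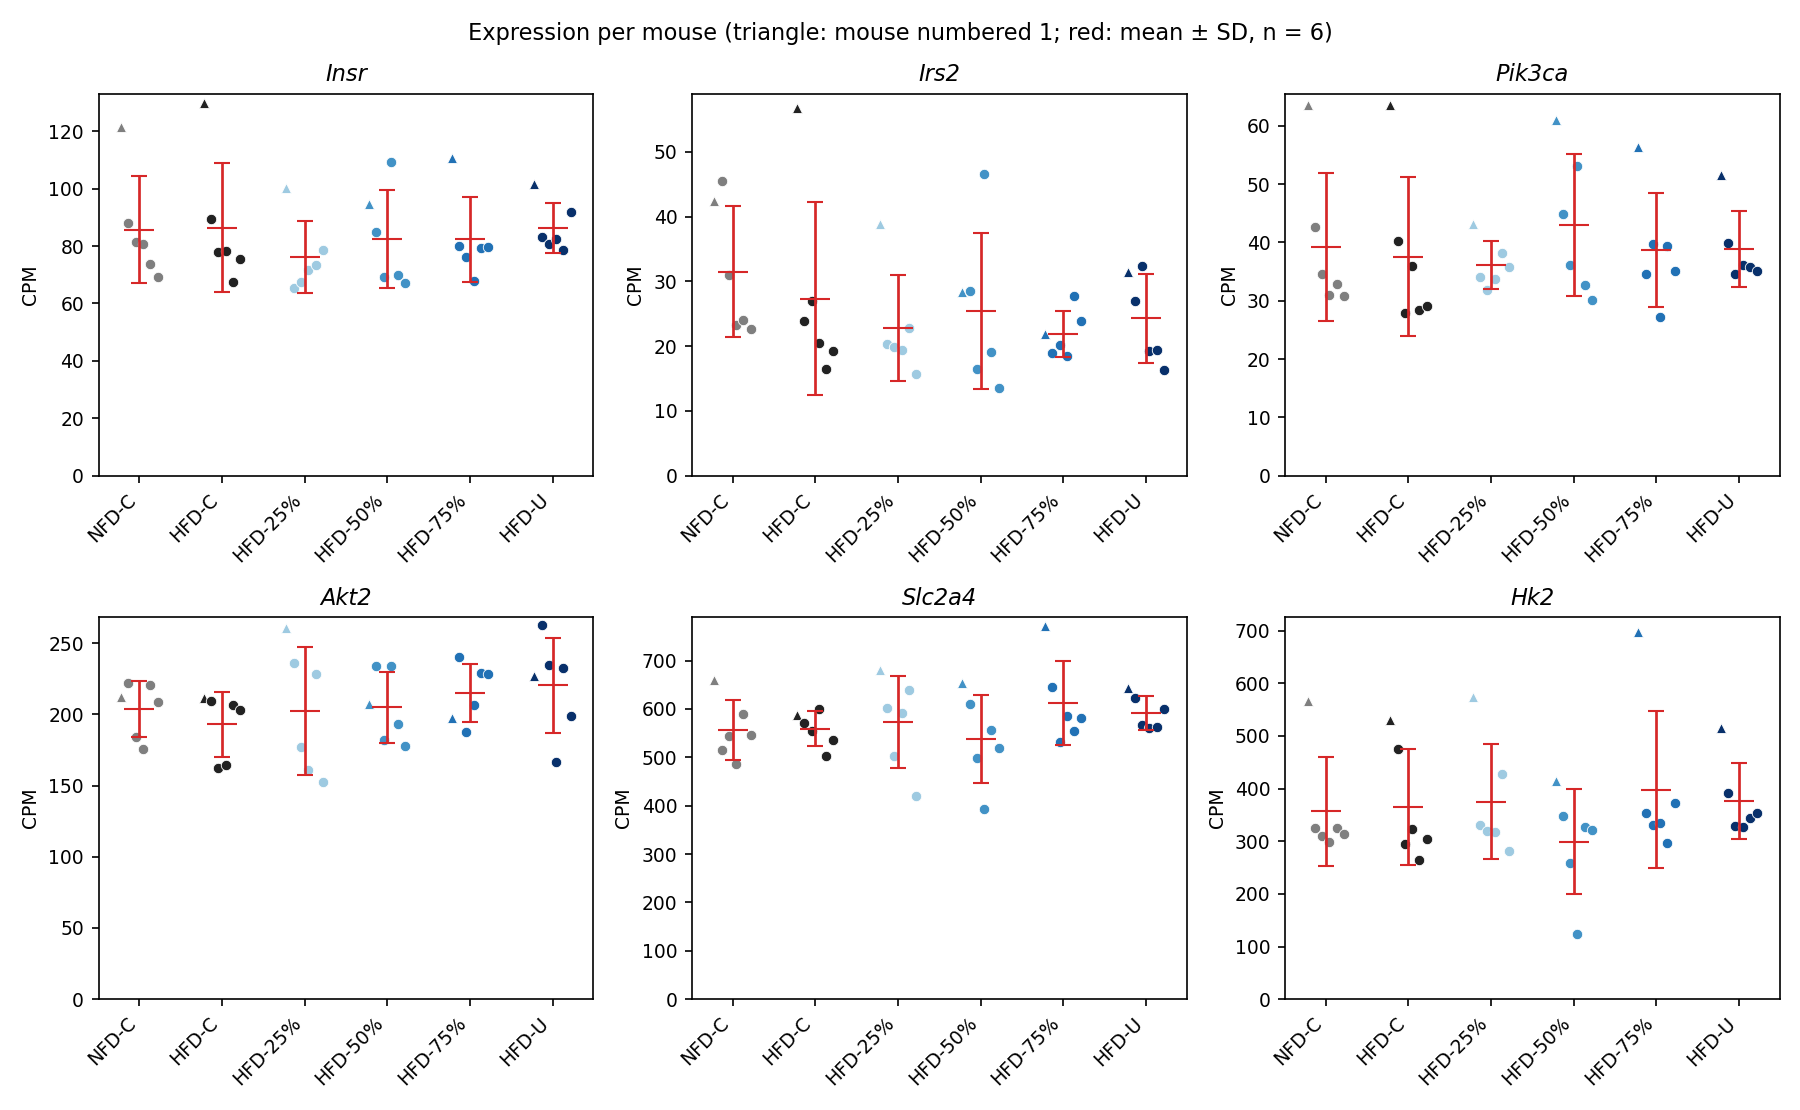
CPM per mouse of the 6 members that passed the unadjusted limit in no comparison, with triangles for mice numbered 1 and red bars for mean ± SD of 6 mice. Mouse 1 is the highest of its group for Hk2 and Pik3ca in all 6 groups.

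The counts of members stood as follows against all genes tested, where a call means a p of at most 0.05. In HFD-25% against HFD-C, 1 of 10 members was higher and 1 lower at an unadjusted p, against 3.4% of all genes higher and 3.58% lower, and no member but 0.0082% of genes passed the adjusted limit. In HFD-50% against HFD-C, 2 were higher and 1 lower, against 5.8% and 4.89% of genes, and 0% of genes passed after adjustment. In HFD-75% against HFD-C, 1 was higher and 1 lower, against 2.31% and 3.16%, with 0% after adjustment. In these 3 comparisons the members with a call were Pik3r1, Irs1 and, in HFD-50%, Tbc1d4.

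In HFD-U against HFD-C, 0 were higher and 1 lower, against 2.15% and 3.31% of genes, with 0% after adjustment. In this comparison samples with the same number deviated together, and with mouse number as a block 3 members passed the unadjusted limit, Tbc1d1 at -0.47, Tbc1d4 at 0.27 and Irs1 at -0.29 (adjusted p = 0.379, 0.387 and 0.435). In HFD-C against NFD-C, 0 were higher and 1 lower, against 2.14% and 1.98%, with 0% after adjustment. In HFD-50% against HFD-U, 1 was higher and 0 lower, against 7.08% and 5.34%, and 0.00844% of genes passed after adjustment.

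Over the distance curve, 2 of 10 members passed the unadjusted limit against 12.2% of genes, and 1 passed the adjusted limit against 0.683%. The second was Irs1, with a U-shaped curve (adjusted p = 0.268). Among the 4 running groups, 1 member, Pik3r1, passed the unadjusted limit against 7.27% of genes (adjusted p = 0.627), and 0.0251% of genes passed after adjustment. The members' median log2 fold change lay between -0.04 and 0.10 in the 6 comparisons of groups, near the median of all genes tested, which lay between -0.01 and 0.02.

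**Figure D4:**
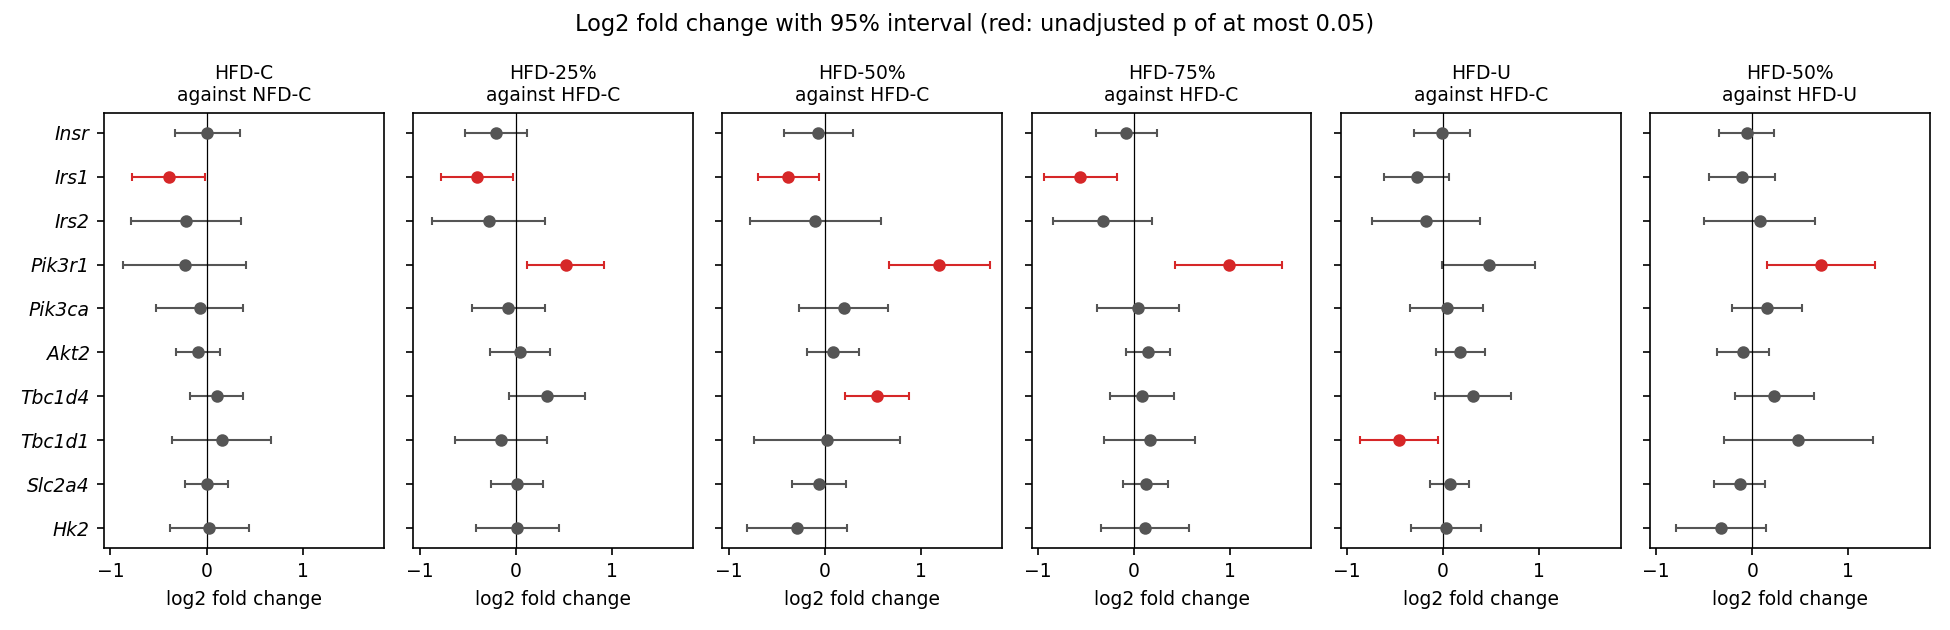
Log2 fold change of each member in 6 comparisons, with the 95% interval and in red those at an unadjusted p of at most 0.05. Red points are Pik3r1 in 4 panels, Irs1 in 4, and Tbc1d4 and Tbc1d1 in 1 each.

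Beyond the members, 73 other genes of the pathway were grouped by role, of which 67 or 68 were tested in each comparison. At an unadjusted p of 0.05, HFD-25% had 4 higher and 1 lower than HFD-C, which is 5.88% and 1.47% of those tested against 3.4% and 3.58% of all genes. HFD-50% had 6 higher and 2 lower, or 8.96% and 2.99% against 5.8% and 4.89%, and HFD-75% had 5 higher and 0 lower, or 7.46% and 0% against 2.31% and 3.16%. The higher counts in HFD-25%, HFD-50% and HFD-75% each include Doc2b, which reached the minimum count only through the runners. HFD-U had 1 higher and 1 lower, or 1.49% each against 2.15% and 3.31%. In HFD-C against NFD-C 1 was higher and 2 were lower, or 1.47% and 2.94% against 2.14% and 1.98%, and in HFD-50% against HFD-U 3 were higher and 4 lower, or 4.48% and 5.97% against 7.08% and 5.34%. None passed after adjustment in these comparisons. Over the distance curve 8 of 67 passed the unadjusted limit, 11.9% against 12.2% of all genes. Pik3cd, Foxo1 and the scarce Doc2b passed the adjusted one, which 0.683% of all genes did. Doc2b again entered that fit only through the runners.

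Among the 4 other subunits of phosphoinositide 3-kinase, Pik3cd changed with distance (adjusted p = 0.00851), with its lowest mean, 9.01 CPM, in HFD-50%. Pik3cd encodes the catalytic subunit p110-delta, best known from leukocytes. The 6 HFD-50% mice had 7.50, 5.88, 13.5, 6.70, 9.40 and 11.1 CPM, and the 6 HFD-U mice had 18.5, 16.9, 19.3, 15.8, 19.2 and 29.2 CPM, with no overlap between these groups. Of all genes, 5.34% were lower there at the unadjusted limit, and the share without overlap was not counted. The log2 fold change was -0.96 (SE 0.230, adjusted p = 0.139) against HFD-C and -1.13 (SE 0.207, adjusted p = 0.0731) against HFD-U. The leukocyte gene Ptprc was at 0.408 to 3.27 CPM over all libraries, 3 immune genes tested in that comparison did not pass with log2 fold changes of 0.34 to 0.36, while Cd68 passed the unadjusted limit over distance (adjusted p = 0.246), and the part of immune cells was not tested.

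Among the 9 AKT substrates, Foxo1, the transcription factor that AKT keeps out of the nucleus, had log2 fold changes against HFD-C of 0.98 (SE 0.318) in HFD-25%, 1.33 (SE 0.324) in HFD-50% and 1.22 (SE 0.292) in the HFD-75% group. Each passed the unadjusted limit, with adjusted p-values of 0.496, 0.139 and 0.372. Foxo1 ranged from 12.4 to 48.8 CPM in HFD-C and from 46.5 to 136 CPM in HFD-50%, with a single HFD-50% mouse within the HFD-C range. HFD-C against NFD-C gave -0.80 (SE 0.357, adjusted p = 0.9996), HFD-50% against HFD-U gave 0.94 (SE 0.339, adjusted p = 0.296), both past the unadjusted limit, and the curve over distance had an adjusted p of 0.0400. Foxo3, a related factor, passed the unadjusted limit in HFD-50% at 0.51. Foxo1, like Pik3r1, is one of the genes the study chose on these mice.

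Of the 20 genes of GLUT4 traffic, Doc2b, a calcium sensor for vesicle fusion, had log2 fold changes of 1.94, 2.90 and 1.80 in the same 3 groups (adjusted p = 0.419, 0.134 and 0.579), and its curve had an adjusted p of 0.0190. Doc2b was scarce, and its mean count in HFD-C lay below the minimum of 25, so that it was tested against that group only through its higher counts in the runners and these values are a description. It had 1 to 53 reads in HFD-C and 58 to 556 in HFD-50%, and the highest value belonged to HFD-50% mouse 4 at 32.1 CPM while the other 5 had 4.15 to 6.48 CPM. All 6 HFD-50% mice lay above the HFD-C maximum of 3.16 CPM, and the share of all genes that did so was not counted. Pak1, a kinase downstream of RAC1, had 0.75 in HFD-25%, 0.66 in HFD-50% and 0.67 in HFD-U (adjusted p = 0.259, 0.259 and 0.427). Stxbp4, a syntaxin-binding protein, had values of 0.63 in HFD-25%, 0.69 in the HFD-75% group and -0.47 in HFD-C against NFD-C (adjusted p = 0.338, 0.742 and 0.9996). Sort1, which encodes sortilin, had 0.38 in HFD-75%, and in HFD-50% against HFD-U Doc2b had 1.71 and the clathrin heavy chain gene Cltc -0.29, all past the unadjusted limit only.

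In the other role lists the calls were at the unadjusted limit only. Of the 8 tested adaptors and receptors, Gab1 had 0.41 and Grb2 -0.28 in HFD-50% against HFD-C, and Igf1r, the receptor for insulin-like growth factor 1, passed over distance. Of the 12 tested negative regulators, Inpp5k had 0.26 in HFD-50% and Ptpn1, a phosphatase that acts on the receptor, 0.39 in the HFD-75% group. Inppl1 had 0.27 in HFD-C against NFD-C. None of the 8 genes of AKT forms and their kinases passed the unadjusted limit in any comparison.

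Over distance the adjusted p of Pik3cd stayed between 0.000710 and 0.0259 when any single mouse was left out. With a straight line over distance the adjusted p of Pik3cd, Foxo1 and Doc2b was 0.9998. Against the 2 low-share HFD-C mice the adjusted p was 0.187 for Foxo1 and 0.189 for Doc2b. Doc2b reached 0.0502 without HFD-50% mouse 4, and its p-values are a description, since it entered the fit only through the runners. Foxo1 was above 0.05 without any one of 13 single mice, which were HFD-C mice 1 (0.0956), 3 (0.0918) and 6 (0.0678), HFD-50% mice 1 (0.0610), 2 (0.0674), 4 (0.0646) and 5 (0.0547), HFD-75% mice 1 (0.0511), 2 (0.0517), 5 (0.0515) and 6 (0.0574), and HFD-U mice 3 (0.0545) and 6 (0.05001).

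**Figure D5:**
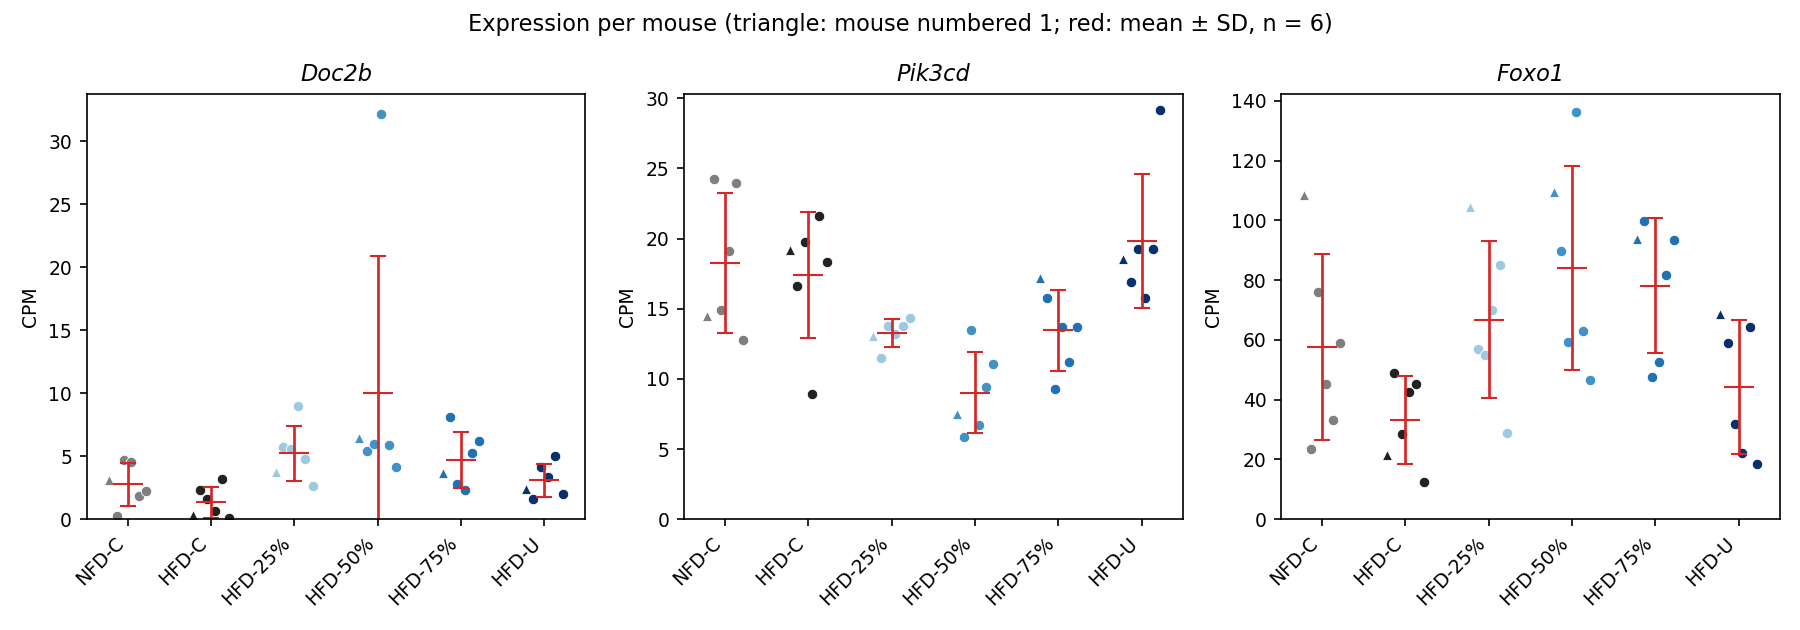
CPM per mouse of Doc2b, Pik3cd and Foxo1, the pathway genes past an adjusted p of 0.05 over distance, with triangles for mice numbered 1 and red bars for mean ± SD of 6 mice. Doc2b entered that fit only through the runners, so its p is a description. The HFD-50% and HFD-U mice do not overlap in Pik3cd, and HFD-50% mouse 4 alone exceeds 30 CPM of Doc2b. The lower bar of Doc2b in HFD-50% would go below 0 and stops at the axis.

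Genes with the most similar pattern over the 30 high-fat mice were listed by Pearson's r of log2 CPM, as a description of mice that share libraries and groups. For Pik3r1 these were Zbtb16 (r = 0.83), Cep85l (r = 0.79) and Cblb (r = 0.78). For Irs1 they were P2rx6 (r = 0.63), Gm39469 (r = 0.61) and Akr1e1 (r = 0.60), and for Irs2 Gcn1 (r = 0.80), Copb2 (r = 0.80) and Mtrex (r = 0.79). Insr was nearest to Lrba (r = 0.90), Pdpk1 (r = 0.89) and Ppp2ca (r = 0.88), and Pik3ca to Dync1h1 (r = 0.89) and Arfgef2 (r = 0.87). Pdpk1 encodes the kinase that phosphorylates AKT.

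Akt2 was nearest to Gaa (r = 0.92), Abcf2 (r = 0.89) and Ptov1 (r = 0.89), and Tbc1d4 to Fam160b1 (r = 0.75), Gcc2 (r = 0.72) and Ddo (r = 0.72). For Tbc1d1 the nearest were Flnc (r = 0.74), Fbxo9 (r = 0.73) and Kcnq5 (r = 0.72), for Slc2a4 Kcnj12 (r = 0.90), Srl (r = 0.87) and Ank (r = 0.86), and for Hk2 Trak1 (r = 0.95), Taco1 (r = 0.94) and Scn4b (r = 0.94).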

How the data were processed

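Gastrocnemius RNA of 36 mice was sequenced as poly(A)-selected, paired-end libraries. Per the labels, the authors aligned reads with HISAT2 2.0.5 and counted them per gene with featureCounts 1.5.0-p3, and the deposited values are raw counts with no normalization. The labels name build mm10, whereas the chromosome sequences listed with the counts are those of GRCm39, which is used here for gene positions. Gene lengths deposited with the counts were used only for FPKM. Counts were tested in R 4.3.3 with edgeR 4.0.16 (TMM scaling, quasi-likelihood F-test), keeping genes whose mean count in the fitted libraries reached 25, and p-values were adjusted over all genes tested by the Benjamini-Hochberg method. Groups came from the treatment labels. Fits were checked on simulated data. Alternatives were DESeq2 1.42.0, RLE scaling, no minimum count, mouse number as a block, a single fit of 36 mice, the share of ribosomal RNA features as a covariate or limit (1.5% of counts), a line or unordered groups over distance, leaving out each mouse and leaving out mice numbered 1. CPM values are counts per 1000000 counted reads after TMM scaling over 36 libraries, and log2 CPM used a prior count of 2. Likeness was the 3 genes with the highest r. From each pathway or marker list, up to 4 genes at an unadjusted p of 0.05 in a comparison were named, smallest p first. Some genes that these rules select are not reported here. The members, lists and tests were chosen with earlier results of these data known.

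Deviations of samples with the same number were correlated in each pair of groups. In HFD-U against HFD-C, all 6 pairs had r above 0.1 (0.12 to 0.51), so the numbers were taken to pair those samples, from the data and not from a stated pairing. The values given for that comparison are from the fit without a block, except where the block is named. In the other comparisons 1 to 5 of 6 pairs had r above 0.1, and no pairing was taken there. Replicates of a group differed by 16.5 to 210 times the variance of sampling alone, and no libraries were identical.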

Additional observations from a re-analysis of the deposited data

Results flagged for a closer look

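In 12 of 60 sets of 6 mice, 1 for each member and group, the highest mouse lay farther from the next than Dixon's 95% limit allows. For normally distributed values the limit flags about 1 in 20 sets. The 60 sets are not independent, since all members were read in the same 36 libraries, so the 12 cannot be weighed against that rate. In all 12 the flagged mouse was number 1 of its group. For Insr these were 122 CPM in NFD-C, 130 CPM (129.8) in HFD-C and 111 CPM (110.8) in HFD-75%. For Pik3ca they were 63.5 CPM in NFD-C, 63.5 CPM in HFD-C and 51.6 CPM in HFD-U. For Hk2 they were 566 CPM in NFD-C, 697 CPM in HFD-75% and 515 CPM in HFD-U. For Irs2 they were 56.8 CPM in HFD-C and 38.9 CPM in HFD-25%, and for Tbc1d1 285 CPM in HFD-50%. The cause was not tested.

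Pik3r1 was higher in HFD-50% than in HFD-U in a direct test, by a log2 fold change of 0.72 (edgeR, adjusted p = 0.305), past the unadjusted limit of 0.05 only. Without HFD-50% mouse 1 the value was 0.51 and did not pass.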

How the results depend on the processing

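No log2 fold change of a member at an unadjusted p of 0.05 turned its direction in 79 refits under other settings or in 120 refits that left out 1 mouse. Only 62 of the 79 and 96 of the 120 still passed that limit. Among values above that limit, 52 of 391 refits and 68 of 600 had another sign, none at an unadjusted p of 0.05. Of these 391 and 600 refits, 18 and 10 passed that limit, with the sign kept.

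The count of members at an unadjusted p of 0.05 was 2 in HFD-25% against HFD-C, and 1 in a single fit of 36 mice or without mice numbered 1, a setting chosen after seeing the data. In HFD-50% against HFD-C it was 3, and 2 in a single fit, with low-share libraries or without mice numbered 1. In HFD-75% it was 2, and 1 with the share of ribosomal RNA features as a covariate or with low-share libraries only. In HFD-U it was 1, and 2 with DESeq2 or no minimum count, 3 with the replicate block or low-share libraries, 4 with the share covariate, and 0 in a single fit or without mice numbered 1. In HFD-C against NFD-C it was 1, and 0 with the share covariate. In HFD-50% against HFD-U it was 1, and 2 with the replicate block or without mice numbered 1. Over distance it was 2, with 1 in a single fit, with the covariate, with low-share libraries, with unordered groups and without mice numbered 1, and 0 with a line. Among the running groups it was 1, with 0 in a single fit and 2 without mice numbered 1.

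The adjusted p of Pik3r1 in HFD-50% against HFD-C was 0.111, and was below 0.05 with DESeq2 (0.00169), no minimum count (0.0189), the replicate block (0.0303) and a single fit (0.0368). It was above 0.05 with RLE scaling (0.109), the covariate (0.216), low-share libraries (0.345) and without mice numbered 1 (0.200). In HFD-75% it was 0.397, and 0.0488 with DESeq2, while the other settings gave 0.157 to 0.776. Over distance it was 0.0386, and 0.189 in a single fit, 0.0895 with the covariate, 0.0985 with low-share libraries, 0.9998 with a line, 0.123 with unordered groups and 0.0713 without mice numbered 1.

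Leaving out each mouse gave 1 to 2 members in HFD-25%, 2 to 3 in HFD-50%, 2 to 2 in HFD-75%, 0 to 3 in HFD-U, 0 to 2 in HFD-C against NFD-C, 0 to 1 in HFD-50% against HFD-U, 0 to 1 among the running groups and 1 to 2 over distance, where the adjusted p of Pik3r1 ran from 0.0190 to 0.103. The numbers were taken to pair samples only in HFD-U against HFD-C. The cause of these shifts was not tested. With 6 mice a group, the 95% intervals give the differences these data could miss.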
